A study of Mus musculus with 6 samples.

Results

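The translation initiation factor genes described here are the rows of the count table whose mouse gene symbol begins with Eif followed by a digit from 1 to 6. Symbols that end in -ps with digits were left out, which removed 7 pseudogenes. The rule found 57 of the 51912 genes in the table. They hold the subunits of eIF2, its exchange factor eIF2B, eIF3 and the eIF4 group, together with eIF1, eIF5, eIF5A, eIF5B and eIF6, the eIF2 kinases and the eIF4E-binding proteins. Taken by its letter, the rule also kept the processed pseudogene Eif5al3-ps and Eif2c5, a long intergenic noncoding RNA, neither of which was placed in a complex.

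RNA was sequenced from EL4 cells, which are a line of mouse T-cell lymphoma with a genotype labelled wild type. The vehicle group and the RGFP966 group held 3 libraries each. RGFP966, a small-molecule inhibitor of the histone deacetylase HDAC3, was given at 10 µM for 24 h. The labels give no more about either group, name a single cell line, and do not say whether the libraries came from separate cultures, so the p-values below measure the spread between these libraries, which may be technical.

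Translation of most messenger RNAs begins at the 5′ cap. eIF4E binds the cap, eIF4G joins it to the helicase eIF4A, and eIF4A, helped by eIF4B and eIF4H, unwinds the leader so that the small ribosomal subunit can scan for a start codon. That subunit carries eIF1, eIF1A, eIF3, eIF5 and the initiator tRNA held by eIF2 with GTP; eIF2B recharges eIF2, and kinases that phosphorylate eIF2 slow that step.

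The libraries held between 12935443 and 16451017 counted reads. Summed over 10 T-cell markers, the level ran from 2781 to 2810 CPM (reads per 1000000 of the scaled library total) with vehicle. With RGFP966 it ran from 2880.1 to 2943, and all 10 were above 1 CPM. These markers did not move together. Ptprc (648 to 756 CPM, edgeR adjusted p = 2.34e-06), Cd5 (3.29e-06) and Cd2 (0.001) rose. Lat (371 to 318 CPM, 5.8e-06) and Zap70 (0.0466) fell, and the others had an adjusted p of 0.103 or more. The deposited extraction text speaks of retinas, but the summed level of 10 retinal markers was 4.78 to 5.18 CPM with vehicle and 4.92 to 5.23 CPM with RGFP966, with Crx and Gnat1 at 0. Markers of macrophages and myeloid cells summed to at most 13.8 CPM in a library, with Adgre1 at 0. The fibroblast list ran from 44.3 to 45.5 CPM with vehicle and from 54.8 to 57.4 with RGFP966, nearly all from Pdgfra, with Col3a1 at 0; its part in the results below was not tested. Hdac3, the gene of the drug's target, stood at 89.1 ± 3.83 CPM (SD, n = 3) with vehicle and 85.9 ± 2.49 with RGFP966, a log2 difference of -0.05 with an edgeR adjusted p of 0.482. In bulk RNA, fewer cells of a type and less RNA per cell cannot be told apart.

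RGFP966 moved individual initiation factor genes in both directions and by small amounts. Of the 57 genes, 53 passed the filter on low counts, and edgeR's quasi-likelihood test, with Benjamini-Hochberg adjustment over all 13484 genes tested, called 5 members higher and 10 members lower after RGFP966, with a threshold of 0.05. Those calls are 9.43% and 18.9% of the tested members, beside 11.4% higher and 11.9% lower over all genes. In either direction 28.3% of the members were called, beside 23.3% of all genes. At a mean level of 100 CPM or more, where most initiation factors lie, 8 of 37 members (21.6%) and 22.2% of all 2621 genes were called lower, and 4 members (10.8%) and 13.5% of all genes were called higher. The shares of members called were thus close to those of other genes of high level.

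The median log2 fold change over the 53 members was -0.037, and 36 of them lay below 0, beside -0.0019 and 6795 of 13484 over all tested genes. At 100 CPM or more, the median was -0.037 over 37 members, with 26 below 0, and -0.025 over all 2621 genes, with 1531 below 0. The largest called change of a member was 0.30 on the log2 scale and the smallest was 0.11. Together the 57 genes took 1.492%, 1.502% and 1.506% of all reads in the vehicle libraries and 1.456%, 1.473% and 1.427% in the RGFP966 libraries, so every vehicle library lay above every RGFP966 library. This total weighs abundant genes most. The largest falls in mean CPM were those of Eif5a (1092 to 886) and Eif4a1 (1121 to 939), while Eif4a2 rose from 538 to 645. Scaling by the upper quartile in place of TMM (edgeR's trimmed mean of M-values) gave 5 members higher and 7 lower, and moved the higher share of all calls from 49.1% to 59.1%. Without RGFP966 library 1 the members called higher fell from 5 to 3, through Eif4ebp2 and Eif5b. All 15 called members kept their direction under each of the 15 alternatives run, and 10 of them kept their call in every one.

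**Figure D1:**
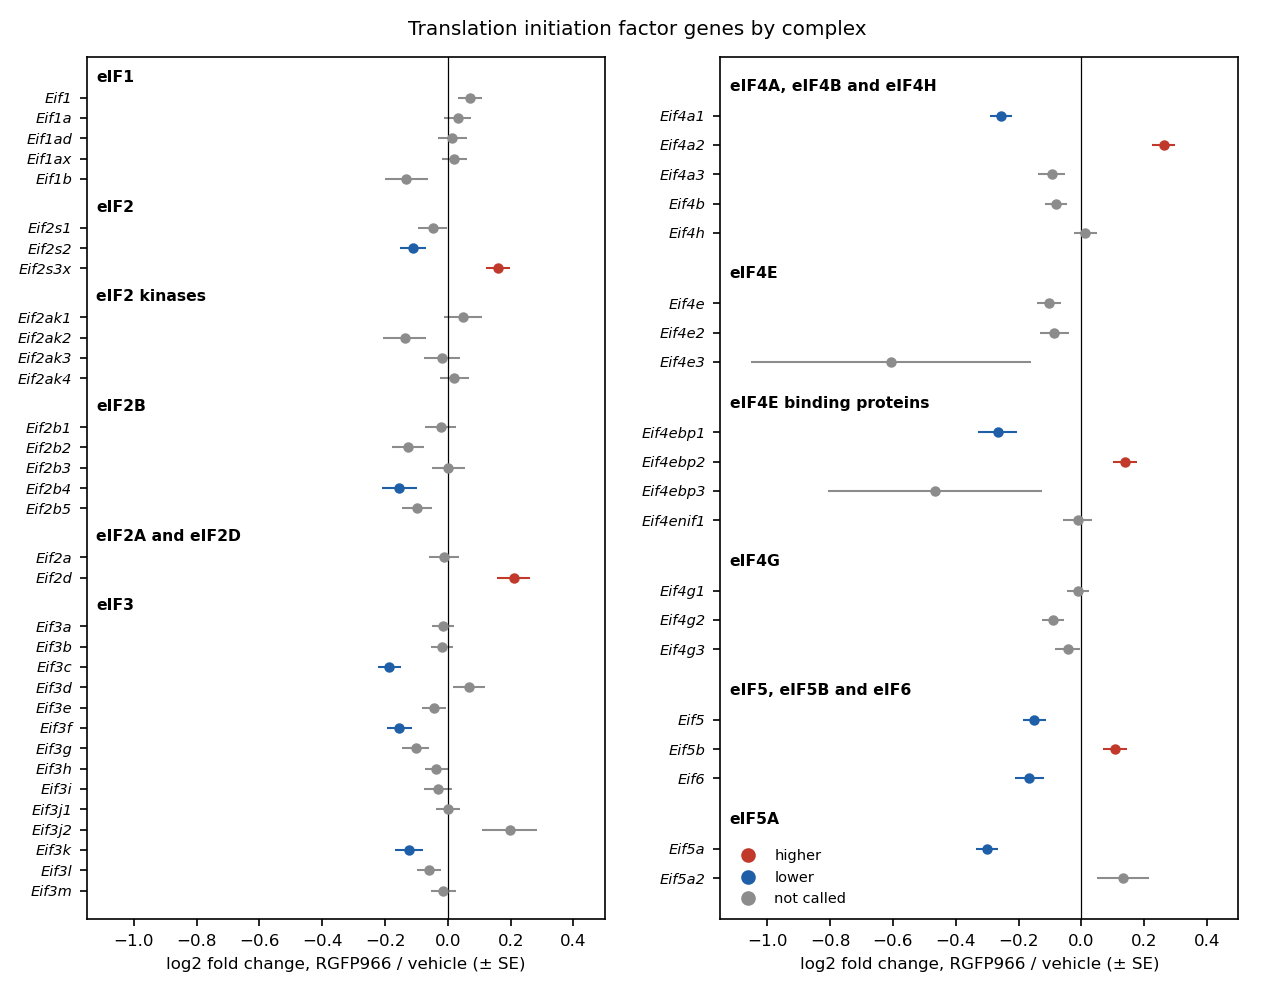
The points show the log2 fold change of RGFP966 over vehicle for the 53 tested initiation factor genes, grouped by complex, with bars of 1 standard error. Red genes were called higher (5), blue genes lower (10) and grey genes were not called (38), and the called genes lie within 0.30 of 0 on the log2 scale.

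**Figure D2:**
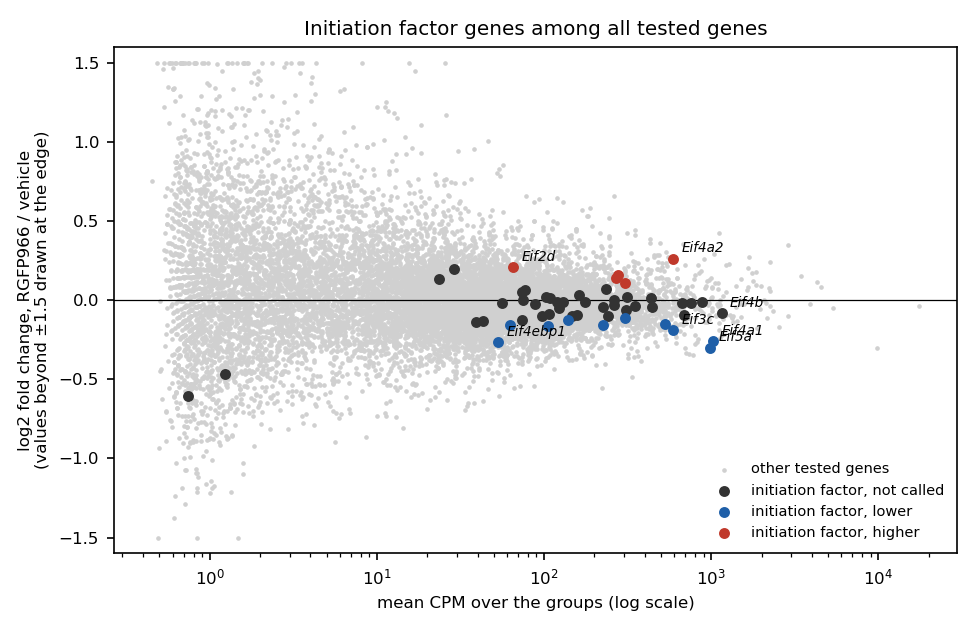
Each tested gene is drawn by its mean CPM (horizontal, log scale) and its log2 fold change (vertical), with other genes in pale grey and initiation factor genes in dark or coloured points. Most members lie at 100 CPM or above and within 0.30 of 0, with Eif5a and Eif4a1 at the bottom and Eif4a2 at the top of the called members.

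The helicase eIF4A showed opposite changes in its paralogues: Eif4a1 fell and Eif4a2 rose. Both encode the RNA helicase that unwinds messenger leaders. Eif4a1 (chr11:69666936-69672423, minus strand, GRCm38) read 1090.1, 1169 and 1105 CPM in the vehicle libraries and 949, 958 and 909 CPM in the RGFP966 libraries. Its log2 fold change was -0.26 ± 0.04 (SE) with an edgeR adjusted p of 1.76e-07, and no RGFP966 library reached the lowest vehicle library. Eif4a2 (chr16:23107444-23114136, plus strand) read 529, 555 and 529.5 CPM with vehicle and 637, 649 and 648 CPM with RGFP966. It rose by 0.26 ± 0.04 on the log2 scale (edgeR adjusted p = 1.05e-07), again with no overlap between the groups.

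Set on a per-length scale, as CPM per kilobase of exon, Eif4a1 made up 71.7%, 72.2% and 72.0% of the sum of Eif4a1 and Eif4a2 in the vehicle libraries and 64.7%, 64.5% and 63.4% in the RGFP966 libraries. Every RGFP966 library thus had a lower Eif4a1 share than every vehicle library. These shares use the Eif4a1 row alone and leave out its near-identical pseudogene Eif4a-ps4, described below. That row held a mean of 420 CPM with vehicle and 381 with RGFP966, so the true proportions of the pair are uncertain. Eif4a1 remained the more abundant of the pair, at 217 CPM per kilobase beside 121 for Eif4a2 after RGFP966. Eif4a3, a helicase of the exon junction complex that shares the family name, was not called: it stood at 163, 157 and 165 CPM with vehicle and 148, 161 and 145 with RGFP966 (-0.09 ± 0.04, edgeR adjusted p = 0.113). Without RGFP966 library 2 it was called lower (-0.14, adjusted p = 0.0266, range over the alternatives 0.0266 to 0.506).

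Reads of Eif4a1 can be mistaken for those of a processed copy. Eif4a-ps4 (chr1:60703932-60705149, plus strand), which the rule leaves out, spans 1218 bases and differs from the Eif4a1 coding sequence at 1 of them, G534A, counted from the A of the start codon with the Eif4a1 base first. The 61 bases around that position, positions 504 to 564, are shown because they hold the only difference by which a read inside the aligned stretch could be placed; the capital marks it.
Eif4a1: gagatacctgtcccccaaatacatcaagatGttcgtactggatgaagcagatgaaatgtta
Eif4a-ps4: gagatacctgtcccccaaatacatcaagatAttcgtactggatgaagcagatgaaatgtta

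Of the 50-base words in the exons of Eif4a1, 24.17% also occur in Eif4a-ps4, so the split of reads between them depends on how the counting treated reads with several matches, a setting not given in the sources used here. The pseudogene row read 418, 442 and 400.2 CPM with vehicle and 374, 390.0 and 379 CPM with RGFP966 (-0.14 ± 0.04, edgeR adjusted p = 0.00427). It moved the same way as Eif4a1. With its reads added to Eif4a1, the log2 fold change of the sum was -0.22 ± 0.04 and the adjusted p 2.29e-06. For Eif4a2, 13.26% of the exonic length overlaps Rfc4, whose own log2 fold change was -0.02 (adjusted p = 0.84).

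The helpers of eIF4A were among the most abundant members and were not called. Eif4b had the highest per-length level of its group, 266 CPM per kilobase with vehicle, and read 1203, 1161 and 1203 CPM with vehicle and 1109, 1161 and 1103 with RGFP966 (-0.08 ± 0.03, edgeR adjusted p = 0.0882). RGFP966 library 2 lay within the vehicle range. Without vehicle library 2 Eif4b was called lower (-0.10, adjusted p = 0.0372, range over the alternatives 0.0372 to 0.332). Eif4h differed by 0.01, with a 95% interval of -0.06 to 0.08.

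**Figure D3:**
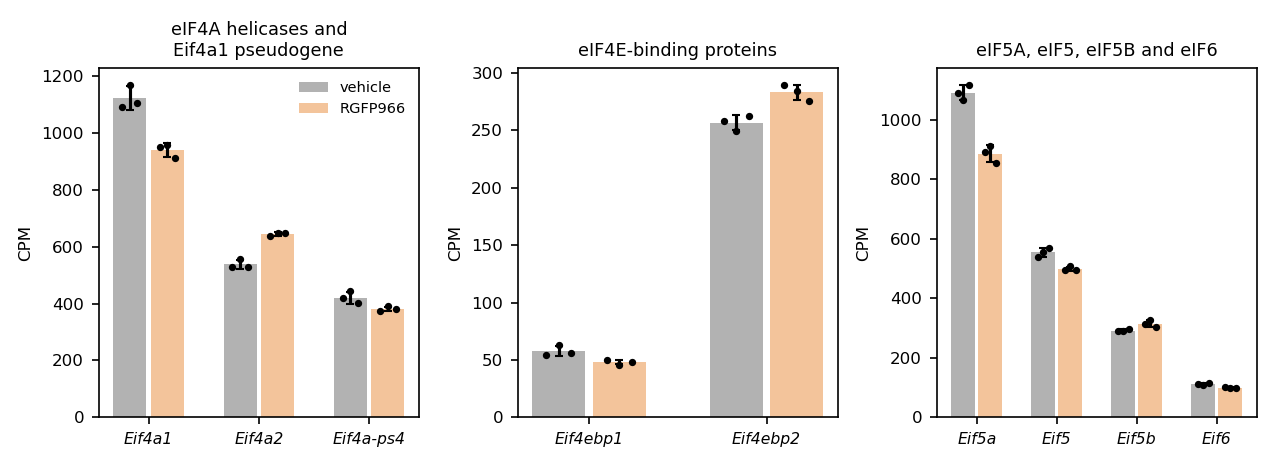
Bars give mean CPM with the standard deviation over 3 libraries, and dots the single libraries, for eIF4A, for the eIF4E-binding proteins and for eIF5A with eIF5, eIF5B and eIF6. Eif4a1 lies lower and Eif4a2 higher with RGFP966, Eif4ebp1 lower and Eif4ebp2 higher, and Eif5a, Eif5 and Eif6 lower with Eif5b higher.

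The eIF4E-binding proteins, which hold eIF4E away from eIF4G until mTORC1 phosphorylates them, also differed in direction between paralogues. Eif4ebp1 (chr8:27260329-27276674, plus strand) read 54.6, 63.1 and 55.9 CPM with vehicle and 49.8, 46.0 and 48.6 CPM with RGFP966. It fell by 0.27 ± 0.06 on the log2 scale (edgeR adjusted p = 0.0008), and the groups did not overlap. Eif4ebp2 (chr10:61428491-61452661, minus strand) read 258, 249.6 and 263 CPM with vehicle and 289, 284 and 276 CPM with RGFP966. It rose by 0.14 ± 0.04 (edgeR adjusted p = 0.00472), also without overlap. Leaving out RGFP966 library 1 took Eif4ebp2 just past the threshold (0.12, adjusted p = 0.051, range over the alternatives 0.000779 to 0.051).

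Per kilobase, Eif4ebp1 was the lesser of these binding proteins, with 35.8%, 40.0% and 35.9% of the sum of Eif4ebp1 and Eif4ebp2 with vehicle and 31.2%, 29.9% and 31.7% with RGFP966. Its share was lower in every RGFP966 library. Eif4ebp3, read at 1.3 to 1.7 CPM with vehicle and 0.9 to 1.1 CPM with RGFP966, was too shallow to resolve: its log2 fold change of -0.47 had a 95% interval of -1.13 to 0.20, and 67.3% of its exonic length overlaps another gene. Eif4enif1, which carries eIF4E into the nucleus, differed by -0.01 (interval -0.10 to 0.08).

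The cap-binding protein itself lay at the threshold. Eif4e read 246, 248 and 258 CPM with vehicle and 229, 244 and 227 CPM with RGFP966, so the groups did not overlap, and its log2 fold change was -0.10 ± 0.04 with an edgeR adjusted p of 0.0503. It was called lower without vehicle library 2 (-0.11, adjusted p = 0.0408) and without RGFP966 library 2 (-0.14, adjusted p = 0.0204), with a range over the alternatives of 0.0204 to 0.261. Its relatives Eif4e2, which represses bound messengers, and Eif4e3, read at about 1 CPM or less, were not called. Eif4e1b, the oocyte form, had no read in any library, which allows up to 0.182 to 0.232 CPM a library for counting error alone.

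Of the eIF4G scaffolds, which tie the cap to the ribosomal subunit, none of 3 was called. Eif4g1 was the most abundant, at 121 CPM per kilobase with vehicle and 120 with RGFP966. Its libraries read 891, 842 and 913 CPM with vehicle and 893, 862 and 871 CPM with RGFP966, and it differed by -0.01 with a 95% interval of -0.08 to 0.06. Eif4g2, the scaffold that lacks the eIF4E site, read 702, 712 and 727 CPM with vehicle and 683, 676 and 651 CPM with RGFP966. These groups did not overlap, but the log2 fold change of -0.09 ± 0.04 had an edgeR adjusted p of 0.053, and limma-voom put it at 0.0384 (range over the alternatives 0.038 to 0.3). Eif4g3 differed by -0.04 (interval -0.12 to 0.03), and the Eif4g1 share of Eif4g1 and Eif4g3 per kilobase was 85.3% ± 0.103 (SD, n = 3) with vehicle and 85.6% ± 0.422 with RGFP966.

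Eif5a, which encodes the factor that helps ribosomes through difficult peptide bonds and carries the amino acid hypusine, had the lowest adjusted p of all members. It is also the most abundant per kilobase, at 459 CPM per kilobase with vehicle and 373 with RGFP966. Eif5a (chr11:69916714-69921958, minus strand) read 1090.0, 1067 and 1118 CPM with vehicle and 891, 913 and 856 CPM with RGFP966. The highest RGFP966 library lay well below the lowest vehicle library. The fall was 0.30 ± 0.04 on the log2 scale, with an edgeR adjusted p of 3.22e-09. Eif5a2, its rare paralogue, read 21.4, 22.9 and 22.5 CPM with vehicle and 25.7, 25.05 and 22.6 CPM with RGFP966 and was not called (0.13 ± 0.08, adjusted p = 0.278). Eif5a made up 99.0% of the sum of Eif5a and Eif5a2 per kilobase with vehicle and 98.7% with RGFP966.

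Dhps, the enzyme that begins hypusine synthesis on eIF5A, fell as well. It read 37.6, 41.6 and 40.3 CPM with vehicle and 30.6, 27.7 and 30.3 CPM with RGFP966, a log2 fold change of -0.43 ± 0.07 (edgeR adjusted p = 5.54e-06) with no overlap. Dohh, which completes it, stood at only 4.95 ± 0.108 CPM with vehicle and 4.30 ± 0.711 with RGFP966 and was not called (-0.21 ± 0.18, adjusted p = 0.457). Of the 10 tested genes of hypusination and polyamine supply, edgeR called 3 lower and 1 higher, with a median of -0.069, beside 11.9% and 11.4% over all genes. Among all genes at 100 CPM or more, 22.2% were called lower and 13.5% higher. The other called genes were Amd1 (-0.14, adjusted p = 0.00767) and Srm (-0.11, 0.0466), enzymes of spermidine synthesis, and Oaz2, an antizyme that restrains polyamine levels (0.18, 0.029). Amd1 shares 78% of its words with other genes, so its row is uncertain. Without RGFP966 library 3 Amd1 lost its call (-0.11, adjusted p = 0.0899), and with Srm, which lost its call whichever library was left out (adjusted p = 0.0502 to 0.191), this left 1 gene of the list called lower. Oaz2 lost its call without vehicle libraries 1 or 3 and without RGFP966 libraries 1 or 2 (adjusted p = 0.0565 to 0.088). Sms, spermine synthase, was called higher in 6 of the 15 alternatives, including upper-quartile scaling (0.12, adjusted p = 0.0158). Odc1, the first enzyme of polyamine synthesis, was called lower without vehicle library 2 (-0.10, adjusted p = 0.0322) and not otherwise.

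The factors that license the start codon and join the subunits split in direction. Eif5, which promotes GTP hydrolysis by eIF2 at the start codon (chr12:111538016-111546752, plus strand), read 538, 555 and 571 CPM with vehicle and 497, 507 and 496 CPM with RGFP966, and fell by 0.15 ± 0.04 (edgeR adjusted p = 0.00137). Eif6, which keeps the large subunit from joining early (chr2:155819832-155826925, minus strand), read 114, 108 and 114 CPM and then 101, 99.2 and 99.6 CPM, and fell by 0.17 ± 0.05 (adjusted p = 0.00509). Neither gene's groups overlapped. Eif5b, the GTPase of subunit joining (chr1:37998010-38055579, plus strand), read 289.9, 289 and 297 CPM with vehicle and 314, 326 and 304 CPM with RGFP966, and rose by 0.11 ± 0.04 (adjusted p = 0.0301), without overlap. That call was lost without vehicle library 1 or 2 (adjusted p = 0.0872 and 0.0585) and without RGFP966 library 1 or 2 (0.0914 and 0.19), over a range of 0.00618 to 0.19 in all alternatives. Of the Eif5b exons, 16.85% overlap Rev1, which differed by 0.04 (adjusted p = 0.676).

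The trimeric eIF2, which delivers the initiator tRNA, had its subunits apart. Eif2s3x, the X-linked gamma subunit that binds GTP and the tRNA (chrX:94188707-94212862, minus strand), read 262, 255 and 270.2 CPM with vehicle and 290.0, 303 and 287 CPM with RGFP966. It rose by 0.16 ± 0.04 (edgeR adjusted p = 0.00128), with no overlap. Eif2s3x shares 34.59% of its words with the predicted gene Gm2223, which read 24.7 CPM with vehicle and 28.7 with RGFP966 and was also called higher (0.22, adjusted p = 0.0378). Its Y-linked twin Eif2s3y had no read in any library. Eif2s1, the alpha subunit that the stress kinases phosphorylate, differed by -0.05 (interval -0.14 to 0.04). Eif2s2, the beta subunit, read 304, 343 and 299 CPM and then 287, 302 and 288 CPM; it was called at -0.11 ± 0.04 with an adjusted p of 0.0495, although RGFP966 library 2 lay above vehicle library 3. The Eif2s2 call was lost in 9 of the 15 alternatives, including those without vehicle library 2 (-0.05, adjusted p = 0.43), RGFP966 library 1 (-0.10, 0.182) or RGFP966 library 3 (-0.09, 0.218), with a range of 0.02 to 0.43.

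None of the 4 eIF2 kinases was called. Eif2ak4, which senses uncharged tRNA, had the highest per-length level of them, at 13.8 CPM per kilobase with vehicle. It read 104, 99.6 and 104 CPM with vehicle and 102, 102 and 108 CPM with RGFP966, overlapping between the groups, and differed by 0.02 (interval -0.07 to 0.11). Eif2ak3, the kinase of the endoplasmic reticulum, differed by -0.02 (-0.13 to 0.09) and Eif2ak1, the heme-regulated kinase, by 0.05 (-0.07 to 0.17). Eif2ak2, the kinase of double-stranded RNA, read 43.2, 36.9 and 43.2 CPM with vehicle and 36.4, 38.6 and 37.0 CPM with RGFP966. Its log2 fold change of -0.14 had an edgeR adjusted p of 0.153, and of 0.0269 without vehicle library 2 (-0.21, range over the alternatives 0.0269 to 0.443).

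In eIF2B, the exchange factor of 5 subunits, 1 subunit gene was called. Eif2b4, the delta subunit (chr5:31187558-31193430, minus strand), read 61.2, 67.7 and 68.6 CPM with vehicle and 61.2, 57.4 and 58.8 CPM with RGFP966, and its log2 fold change was -0.15 ± 0.06 with an edgeR adjusted p of 0.0361. Vehicle library 1 and RGFP966 library 1 lay at the same level. The Eif2b4 call was lost without vehicle library 2 (adjusted p = 0.111), vehicle library 3 (0.188), RGFP966 library 2 (0.123) or RGFP966 library 3 (0.124), and 7.849% of its exons overlap Snx17, which was called lower itself (-0.21, 0.00276). Over all alternatives its adjusted p ran from 0.0123 to 0.188. Eif2b2, the most abundant of the 5 per kilobase, read 77.7, 74.8 and 79.2 CPM with vehicle and 71.8, 73.8 and 66.7 CPM with RGFP966. Its groups did not overlap, but it had an adjusted p of 0.0666 (-0.13), and it was called lower without vehicle library 2 (0.0429) or RGFP966 library 2 (0.0432), over a range of 0.0429 to 0.398. Eif2b1, Eif2b3 and Eif2b5 differed by -0.02, 0.00 and -0.10 and were not called.

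Eif2d, which delivers tRNA to the ribosome independently of eIF2 and aids recycling, rose. It lies at chr1:131153181-131187658 on the plus strand and read 59.5, 62.8 and 59.3 CPM with vehicle and 68.6, 70.5 and 70.9 CPM with RGFP966. All RGFP966 libraries lay above all vehicle libraries, and the log2 fold change was 0.21 ± 0.05 with an edgeR adjusted p of 0.00242. Eif2a, another carrier of initiator tRNA, read 133, 132 and 127 CPM with vehicle and 132, 140.1 and 118 CPM with RGFP966 and differed by -0.01 (interval -0.11 to 0.08).

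The eIF3 scaffold, on which the small subunit's partners assemble, had 14 tested genes, of which 3 (21.4%) were called lower and none higher, with a median of -0.034. That share lies close to the 22.2% called lower among all genes at 100 CPM or more, whose median was -0.025. Eif3c, a core subunit (chr7:126546455-126566411, minus strand), read 602, 642 and 643 CPM with vehicle and 559.5, 562 and 536 CPM with RGFP966, a fall of 0.19 ± 0.04 (edgeR adjusted p = 9.37e-05). Eif3f (chr7:108934417-108942951, plus strand) read 248, 231 and 237 CPM and then 217, 214 and 212 CPM, a fall of 0.15 ± 0.04 (adjusted p = 0.00243). Neither had overlapping groups. Eif3k (chr7:28971372-28981864, minus strand) read 142, 153 and 139 CPM with vehicle and 128, 141 and 129.7 CPM with RGFP966, and was called at -0.12 ± 0.05 (adjusted p = 0.0383) although RGFP966 library 2 lay inside the vehicle range.

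That Eif3k call was lost without vehicle library 1 (adjusted p = 0.0556), vehicle library 2 (0.223), RGFP966 library 1 (0.203) or RGFP966 library 3 (0.2), over a range of 0.0113 to 0.223 in all alternatives. The largest eIF3 subunit gene, Eif3a, differed by -0.01 (interval -0.08 to 0.05) and Eif3b, which binds it, by -0.02 (-0.09 to 0.05), so Eif3c moved without these core partners being called. Per kilobase the eIF3 genes ran from 11.3 CPM for Eif3j2 to 219 for Eif3h with vehicle. Eif3h read 356, 354 and 351 CPM with vehicle and 348, 358 and 329 CPM with RGFP966 and differed by -0.04 (-0.11 to 0.04). The other subunit genes that were not called, Eif3e, Eif3g, Eif3i, Eif3l and Eif3m, differed by -0.01 to -0.10, with adjusted p from 0.0819 for Eif3g to 0.846 for Eif3m. Eif3j1 and Eif3j2 share most of their sequence: 90.77% of the words of Eif3j2 occur in Eif3j1. Neither was called (0.00 and 0.20), and Eif3j2 was called higher without vehicle library 2 (0.31, edgeR adjusted p = 0.00988, range over the alternatives 0.00988 to 0.545). Eif3d, with 43.3% of its exons overlapped by Gm17638, differed by 0.07 (interval -0.03 to 0.17).

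The eIF1 group, in which eIF1 and eIF1A guard the fidelity of start codon choice, had none of 5 genes called. Eif1, at 109 CPM per kilobase with vehicle and 114 with RGFP966, read 230.1, 232 and 221 CPM and then 247, 242 and 229 CPM, and differed by 0.07 (interval -0.01 to 0.15). Its libraries overlapped between the groups. Eif1ad differed by 0.01, and Eif1a and its X-linked paralogue Eif1ax by 0.03 and 0.02, with an Eif1a share of their per-length sum of 39.4% ± 0.667 (SD, n = 3) with vehicle and 39.6% ± 1.65 with RGFP966. Eif1b had a log2 fold change of -0.13 (edgeR adjusted p = 0.164) and was called lower only without vehicle library 3 (-0.20, 0.0385, range over the alternatives 0.0385 to 0.487).

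**Figure D4:**
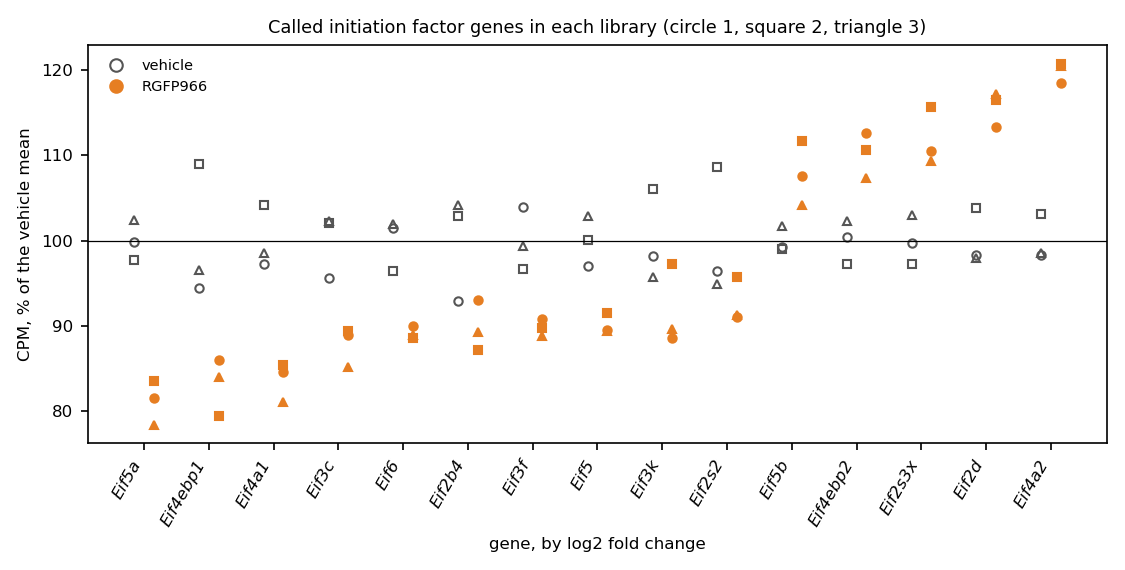
Each of the 15 called genes is drawn with its 6 libraries as a percentage of its vehicle mean CPM, open symbols for vehicle and filled for RGFP966, in order of log2 fold change from Eif5a at the left to Eif4a2 at the right. The groups are apart in all but 3 genes, Eif2b4, Eif3k and Eif2s2.

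The groups did not overlap in 13 members that read lower and 5 that read higher with RGFP966, beside 18.5% and 17.8% of all tested genes. The 4 members that did not pass the filter were Eif2s3y and Eif4e1b with no read, Eif2c5 with at most 2 reads in a library and Eif5al3-ps with at most 3.

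Upstream of each gene's RefSeq start, 250 bases were searched for 3 motifs on both strands: CACGTG (the E-box bound by MYC and its partners), CCGGAAG (the core bound by ETS factors) and CCAAT (the CCAAT box). The sequences are RefSeq's for GRCm38.p6, each on its gene's strand from 5′ to 3′, and capitals mark every match. Eif4a1 and Eif4a2 are shown as paralogues that moved apart, and Eif3f, picked after its matches were seen, as another gene called lower with the same motifs. The windows are chr11:69672424-69672673 for Eif4a1, chr16:23107218-23107467 for Eif4a2 and chr7:108934165-108934414 for Eif3f.
Eif4a1: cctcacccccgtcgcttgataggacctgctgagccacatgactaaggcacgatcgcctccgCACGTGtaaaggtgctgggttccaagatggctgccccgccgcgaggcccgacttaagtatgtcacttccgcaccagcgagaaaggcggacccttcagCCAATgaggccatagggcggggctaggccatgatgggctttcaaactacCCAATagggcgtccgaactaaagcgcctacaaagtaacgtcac
Eif3f: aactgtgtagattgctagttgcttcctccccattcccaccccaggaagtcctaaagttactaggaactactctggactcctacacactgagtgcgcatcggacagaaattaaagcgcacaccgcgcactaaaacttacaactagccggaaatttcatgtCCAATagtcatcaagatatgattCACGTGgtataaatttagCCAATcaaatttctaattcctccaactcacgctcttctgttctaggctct
Eif4a2: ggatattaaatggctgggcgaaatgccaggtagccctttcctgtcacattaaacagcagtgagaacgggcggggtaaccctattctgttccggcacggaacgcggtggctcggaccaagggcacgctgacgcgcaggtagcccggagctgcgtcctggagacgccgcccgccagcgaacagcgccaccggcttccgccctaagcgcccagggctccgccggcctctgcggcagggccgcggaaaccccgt

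Eif4a1 and Eif3f, both called lower, each held 1 E-box and 2 CCAAT boxes, and Eif4a2, called higher, held none of the 3 motifs. The windows of Eif5a, Eif5 and Eif2s2, also called lower, held none of them either. Windows were matched for 42 of the 53 tested members. The E-box stood in 7 of them (16.7%), beside 6.02% of all 32851 windows of that length, the ETS core in 10 (23.8%, beside 6.91%) and the CCAAT box in 12 (28.6%, beside 33.8%). Each member gave 1 window, whereas the 32851 took every RefSeq start, whatever the gene's level. These shares thus come from unlike sets, and an excess of a motif in the members was not tested. Of the 8 windows of members called lower, 3 held an E-box (Eif3f, Eif3k and Eif4a1), and none of the 5 of members called higher did; the other 4 E-box windows belonged to members that were not called. The ETS core stood in 1 of the 8 (Eif3c) and 1 of the 5 (Eif4ebp2), and the CCAAT box in 4 of the 8 and none of the 5. Those 4 were Eif2b4 and the 3 with an E-box, so the counts of these motifs rest on mostly the same genes. A match is a run of letters only, and binding was not measured.

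Outside the Eif symbols, 5 of 18 tested partners of initiation (27.8%) were called higher and 1 (5.56%) lower, with a median of 0.028, beside 11.4% and 11.9% over all genes. Most of these partners lie above 100 CPM, and 13.5% of all genes at that level were called higher and 22.2% lower. Pabpc1, the poly(A)-binding protein that closes the messenger loop through eIF4G, read 3325, 3195 and 3318 CPM with vehicle and 3658, 3745 and 3520.5 CPM with RGFP966 and rose by 0.15 ± 0.03 (edgeR adjusted p = 0.000761). Paip2 and Paip2b, which pull that protein off the tail, rose by 0.26 ± 0.04 (8.96e-06) and 0.24 ± 0.04 (2.7e-05), while Paip1, which aids it, was called lower at -0.17 ± 0.06 (0.0211). Paip2 moved from 127 to 152 CPM and Paip1 from 61.4 to 54.7 CPM. The calls of these genes other than Paip1 stood in every alternative, whereas Paip1 lost its call when vehicle library 2 or 3, or RGFP966 library 2 or 3, was left out (adjusted p = 0.0504 to 0.103). The remaining called genes were Bzw2 (0.13, 0.0118), an eIF5 mimic, which lost its call without RGFP966 library 2 (0.0712), and Mcts2 (0.57, 0.0383), a partner of Denr at only 2.89 CPM with vehicle, which lost it with vehicle library 1 or 2, or RGFP966 library 1 or 3, left out (0.0748 to 0.13). Without vehicle library 2, Larp1 (0.0253) and Ddx6 (0.0183) were called lower. Ddx3x, a helicase of the scanning ribosome that was not called (0.08, 0.113), was called higher in 4 alternatives, including upper-quartile scaling (0.0253) and that without vehicle library 3 (0.0269). Neither tested mitochondrial initiation factor, Mtif2 nor Mtif3, was called (0.05 and -0.11).

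Elongation and termination factors went both ways, with 2 of 13 (15.4%) called higher and 3 (23.1%) lower, beside 11.4% and 11.9% over all genes. Most of these factors lie above 100 CPM, and 13.5% of all genes at that level were called higher and 22.2% lower. Eef1a1, which brings aminoacyl-tRNA to the ribosome, read 10724, 10979.9 and 10828 CPM with vehicle and 8805, 8921 and 8688 CPM with RGFP966, and fell by 0.30 ± 0.03 (edgeR adjusted p = 7.17e-10); 40.36% of its words occur in other genes. Eef2, the translocase, differed by 0.08 (0.0718) and was called higher in 7 of the 15 alternatives, including that without RGFP966 library 3 (0.11, adjusted p = 0.0375). Hbs1l, which rescues stalled ribosomes, was called higher in every alternative (0.15, 0.00971), although 31.41% of its words occur in other genes. Eef1e1 (-0.20, 0.0213), Eef2k (-0.12, 0.0354) and Eefsec (0.22, 0.0318) were less stable. Eef1e1 lost its call without vehicle library 1 or 2 or RGFP966 library 3 (adjusted p = 0.0544, 0.135 and 0.144). Eef2k lost it without vehicle library 3 or any RGFP966 library (0.0772 to 0.202), and Eefsec with vehicle library 2 or 3, or RGFP966 library 1 or 2, left out (0.0505 to 0.175). Upper-quartile scaling called 5 genes of this list higher, adding Eef1g, Eef2 and Etf1. Eef1g had an edgeR adjusted p of 0.0512 (0.09), without overlap between the groups. It was called higher in 8 of the 15 alternatives, and Etf1 in 3. Of the words of Eef1g, 44.2% occur in other genes. Eef1b2 was not called (-0.10, edgeR adjusted p = 0.0541). It was called lower with the replicate number as a block (0.028) and without RGFP966 library 2 (0.0113).

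Among 15 tested genes of mTORC1 and MNK signalling to eIF4E, 5 (33.3%) were called lower and none higher, with a median of -0.095, beside 11.9% and 11.4% over all genes and 22.2% and 13.5% over those at 100 CPM or more. Akt1s1, an inhibitory mTORC1 subunit, read 35.5, 36.1 and 32.3 CPM with vehicle and 24.5, 23.5 and 27.4 CPM with RGFP966 and fell by 0.46 ± 0.08 (edgeR adjusted p = 7.96e-06). Rptor, the subunit that recruits substrates such as the eIF4E-binding proteins, fell by 0.21 ± 0.05 (0.000545), and Rps6, a ribosomal protein phosphorylated downstream, by 0.24 ± 0.04 (1.32e-06). Those 3 calls stood in every alternative. However, 43.79% of the words of Rps6 occur in other genes, and no alternative addressed how its reads were assigned. Members called lower thus include an inhibitor, an adaptor and a substrate, and the kinase gene Mtor was not called (-0.07, adjusted p = 0.266). Rheb (-0.15, 0.0169), the GTPase that activates mTORC1, and Rragc (-0.14, 0.026), of the amino acid branch, lost their calls under upper-quartile scaling (0.0501 and 0.0695), which left 3. Rheb also lost it without vehicle library 2 (0.178) or RGFP966 library 1 (0.116) or 3 (0.0825), and Rragc with vehicle library 1 (0.084) or 3 (0.12), or RGFP966 library 2 (0.105) or 3 (0.195), left out.

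The integrated stress response list had 3 of 15 genes called higher and 2 lower, beside 11.4% and 11.9% over all genes. It mixes genes downstream of eIF2 phosphorylation with others, such as Gcn1, that act upstream of it. Atf4, the transcription factor whose own translation that phosphorylation raises, stood at 431 ± 1.30 CPM (SD, n = 3) with vehicle and 423 ± 2.58 with RGFP966 and was not called (-0.03, edgeR adjusted p = 0.669). Trib3, a pseudokinase induced by ATF4, read 17.9, 20.5 and 19.9 CPM with vehicle and 12.7, 14.97 and 13.001 CPM with RGFP966 and fell by 0.52 ± 0.10 (8.11e-05). Ddit4, an mTORC1 inhibitor, read 59.9, 62.8 and 50.5 CPM and then 80.03, 76.9 and 88.0 CPM and rose by 0.50 ± 0.07 (2.78e-06). The called genes of this list therefore did not share a direction. Of the 15 tested genes, 10 lay below 0, with a median of -0.024, beside 6795 of 13484 and -0.0019 over all tested genes. Chac1 (-0.31, edgeR adjusted p = 0.064) and Cebpg (-0.13, 0.0804) were not called. Chac1 was called lower with the replicate number as a block (0.0449) and without RGFP966 library 3 (0.0273), and Cebpg without vehicle library 2 (0.0268). Atf3 rose from 0.293 ± 0.121 to 1.34 ± 0.273 CPM (2.14 ± 0.46, 0.00039), a low level with few reads a library. Ddit3 (-0.33, 0.014) lost its call without vehicle library 3 (0.0781) or RGFP966 library 2 (0.0772) or 3 (0.0926), and Gcn1 (0.13, 0.0174), which activates Eif2ak4, without vehicle library 2 (0.16) or RGFP966 library 1 (0.0882) or 3 (0.0581).

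**Figure D5:**
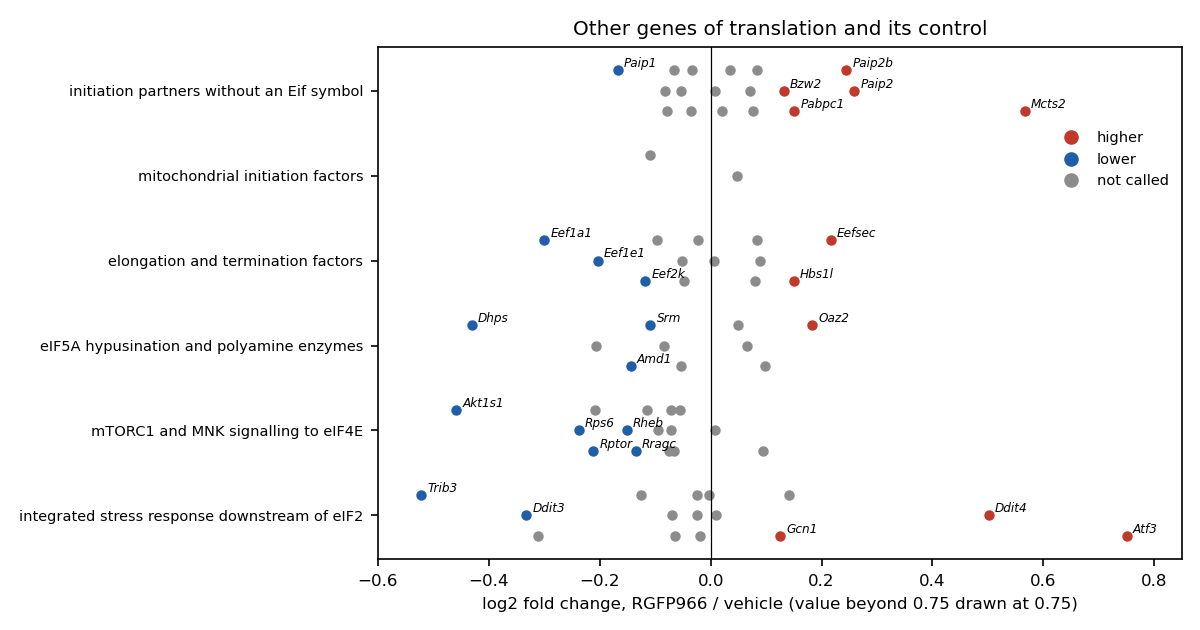
Points give the log2 fold change of RGFP966 over vehicle for the tested genes of 6 lists of translation and its control, with called genes named and coloured (red higher, blue lower) and the others grey. The signalling list has 5 blue and no red points, the partner list 5 red and 1 blue, and Atf3, at 2.14, is drawn at the right edge.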

How the data were processed

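RNA was sequenced from 6 libraries of EL4 cells. The authors deposited 1 table of raw read counts per Ensembl gene. The submitters' processing notes name CASAVA, Bowtie2 2.2.3, HISAT2 2.1.0, TopHat2, HTSeq 0.6.0 and the mm10 build, with no role or order; the annotation release, strand setting and treatment of reads with several matches are not stated by them. Symbols were found for 51633 of the 51912 gene IDs in GENCODE M21, which also gave coordinates, exonic lengths and shared words of 50 bases (GRCm38).

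Counts were filtered with filterByExpr, scaled by TMM and tested with edgeR 4.0.16 (R 4.3.3; quasi-likelihood, robust, RGFP966 against vehicle, no covariate), which was tested on simulated counts. p-values were adjusted by Benjamini-Hochberg over 13484 genes and called under 0.05. CPM use the TMM-scaled totals, and standard errors and 95% intervals derive from the fold change and its F statistic. Libraries of a group differed by 2.15 to 3.33 times sampling noise by chi-square over its degrees of freedom. None was therefore treated as a second deposit of another library; this does not show that they came from separate cultures. Same-numbered libraries were not paired: their deviations correlated at -0.0182, 0.0132 and 0.00842.

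The alternatives, 14 in all, were DESeq2 1.42.0 size factors, upper-quartile and total-count scaling, no filter, a minimum mean of 5 CPM, DESeq2's Wald test, limma-voom (limma 3.58.1), the replicate block and leaving out each library; adding Eif4a-ps4 reads to Eif4a1 was chosen after seeing the data. The members, lists and naming rule were chosen with earlier results of these data known. The rule named every member, gave each library's value for called members and for the most abundant of each complex, and took from each list the called genes, up to 3 a direction; other list genes were named after their values were seen.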

Additional observations from a re-analysis of the deposited data

How the results depend on the processing

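Over the 15 alternatives none of the 53 tested members turned a called direction, and 3 of 5 higher calls, 7 of 10 lower calls and 30 of 38 uncalled members stayed on their side of the threshold in all. Members called higher and lower numbered 5 and 9 under DESeq2 size factors, 5 and 7 under upper-quartile factors, 4 and 10 without a filter, 5 and 7 with DESeq2's Wald test, and 3 to 5 and 7 to 12 when a library was left out; the lowest higher count, 3, came without RGFP966 replicate 1. DESeq2's Wald test called 1139 of all tested genes higher and 1126 lower, beside 1543 and 1602 with edgeR. With the replicate number as a block, 5 members were called higher and 12 lower, and all genes numbered 1667 and 1764; Eif4e (adjusted p = 0.0331) and Eif4g2 (0.038) were the members that gained a call. The labels do not say whether libraries of the same number belong together. Deviations of vehicle and RGFP966 libraries correlated between -0.0279 and 0.0187 over all pairs, whether or not the numbers matched. Depth limits Eif4e3 and Eif4ebp3, near 1 CPM, and with 3 libraries a group changes near 0.10 on the log2 scale sit at the threshold.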
